A study of Homo sapiens with 38 samples.

Results

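The serpin protease inhibitor genes SERPINB2, SERPINB3, SERPINB4, SERPINB7, SERPINE2 and SERPINF1 were followed in IMR90 cells, a line of human fetal lung fibroblasts, after knockdown of the retinoblastoma family. The members were chosen by gene symbol, with earlier results of these data known. Their p-values are therefore not independent of that choice. Of the 6 genes, 5 had an annotated probe set, with 8 probe sets in all, out of 19775 genes and 54613 probe sets in the table. SERPINB2 was not analysed here. The 5 measured genes were among the 8511 genes tested, which had a log2 value above 5 on at least 2 arrays of experiment 1. SERPINB3 passed that filter only through the 2 arrays of senescent shRB cells, and SERPINB4 through those and a single array of senescent shp107 cells.

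The arrays were Affymetrix expression arrays of total RNA from IMR90 cells with a hairpin that silences RB (shRB), p107 (shp107) or p130 (shp130), or with the empty MLP vector. Cells were senescent after ras expression, confluent, kept in low serum (0.1% FBS), or growing in medium with serum. Experiment 1 held the 16 pairings of state and hairpin on 32 arrays, and experiment 2 held senescent shRB, senescent vector and growing vector cells on 6 arrays, with n = 2 in every group. All groups share the same fibroblast line, senescence was induced by ras in every senescent group, and the labels name a single hairpin per target. Nothing in the labels ties the arrays of a group to separate cultures, and the p-values therefore reflect array-to-array spread, which may be technical.

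Serpins are suicide inhibitors: a protease cuts their exposed reactive loop and is then trapped in a covalent complex. SERPINB3 and SERPINB4, the squamous cell carcinoma antigens, are close neighbours in the clade B cluster and stay largely inside the cell, where SERPINB3 inhibits papain-like cathepsins and SERPINB4 inhibits cathepsin G and chymase. SERPINE2 (protease nexin-1) is secreted, binds glycosaminoglycans and inhibits thrombin and the plasminogen activators. SERPINF1 encodes PEDF (pigment epithelium-derived factor), a secreted antiangiogenic serpin that inhibits no known protease, and SERPINB7 (megsin) is a clade B serpin known from kidney mesangium and skin.

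In the GRCh38.p14 annotation SERPINB4 lies at chr18:63637259-63644256, SERPINB3 at chr18:63655197-63661893 and SERPINB7 at chr18:63753057-63805370. SERPINE2 lies at chr2:223975045-224039286 and SERPINF1 at chr17:1762060-1777565. The windows around the transcription starts of SERPINB4 and SERPINB3 are shown for comparison of these neighbouring genes. Most of each window lies before the start, so its identity does not measure how far an array can separate their RNA. Each runs from 250 bases before to 50 bases after the start, was taken from RefSeq and is printed 5′ to 3′ on the minus strand. Both windows are 300 bases long, and the capitals mark the 4 bases at which they differ, an identity of 98.7%. The SERPINB4 window is chr18:63644207-63644506 and the SERPINB3 window is chr18:63661844-63662143.
SERPINB4: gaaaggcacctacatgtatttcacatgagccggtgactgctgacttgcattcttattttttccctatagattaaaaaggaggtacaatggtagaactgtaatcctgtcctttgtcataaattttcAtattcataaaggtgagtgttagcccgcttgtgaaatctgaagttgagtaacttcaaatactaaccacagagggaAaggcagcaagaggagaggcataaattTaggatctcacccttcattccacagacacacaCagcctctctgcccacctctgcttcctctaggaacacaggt
SERPINB3: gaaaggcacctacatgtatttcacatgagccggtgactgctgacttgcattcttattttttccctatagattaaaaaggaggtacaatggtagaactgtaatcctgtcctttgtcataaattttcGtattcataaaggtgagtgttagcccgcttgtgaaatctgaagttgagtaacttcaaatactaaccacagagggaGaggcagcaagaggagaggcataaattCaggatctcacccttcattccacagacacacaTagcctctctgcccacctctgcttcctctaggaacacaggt

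Starts of 4 of the measured genes were found in the RefSeq table, with 7 windows. The letters TGACTCA, the core to which AP-1 (the FOS and JUN dimer) binds, were searched on both strands (TGAGTCA where the match is on the opposite strand). They stood in 2 of the 3 SERPINB7 windows and in none of the windows of SERPINB3, SERPINB4 or SERPINE2, against 4.95% of all 35116 windows in the table. The SERPINB7 window without a match was that at the start of the annotated gene, chr18:63752807-63753106. The 2 stretches with a match lie at later starts, on the plus strand at chr18:63775359-63775405 and chr18:63777716-63777762. They are shown with the 7 matching letters in capitals, and any part of AP-1 in the SERPINB7 levels was not tested.
SERPINB7 first stretch: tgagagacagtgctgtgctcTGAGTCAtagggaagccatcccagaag
SERPINB7 second stretch: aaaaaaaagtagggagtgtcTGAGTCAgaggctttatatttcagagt
The E2F letters TTTCCCGC or TTTGGCGC, searched on both strands, stood in none of the 7 windows and in 2.27% of all windows. A match describes only the letters in the window.

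The arrays were alike in their overall distribution, with a median log2 value between 3.27 and 3.41. The r between the arrays of a group was 0.980 to 0.997. Confluent vector cells, the reference for each hairpin at confluence, had the lowest r. Their arrays also differed most over the genes tested (SD of the difference 0.79). The number of arrays limits the precision. RB1 averaged log2 4.06 to 5.59 in shRB cells of experiment 1, against 9.39 to 9.83 in vector cells, and RBL2, which encodes p130, averaged 4.69 to 5.59 in shp130 cells against 7.58 to 8.31. RBL1, which encodes p107, was dim (3.02 to 3.57 in shp107 cells, against 3.34 to 4.32 in vector cells) and its fall with shp107 was not called in any state, so its probe set does not check that label. The 9 fibroblast markers had a mean log2 level between 9.61 and 11.69 on every array, lower in senescent than in growing cells. Of the 13 measured keratinocyte markers KRT10 and DSP were above log2 5 on all 38 arrays, SFN on 9 and IVL on 6, while the other 9, KRT5 and KRT14 among them, were above 5 on none. The 4 measured blood markers stayed below 3.92.

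**Figure D1:**
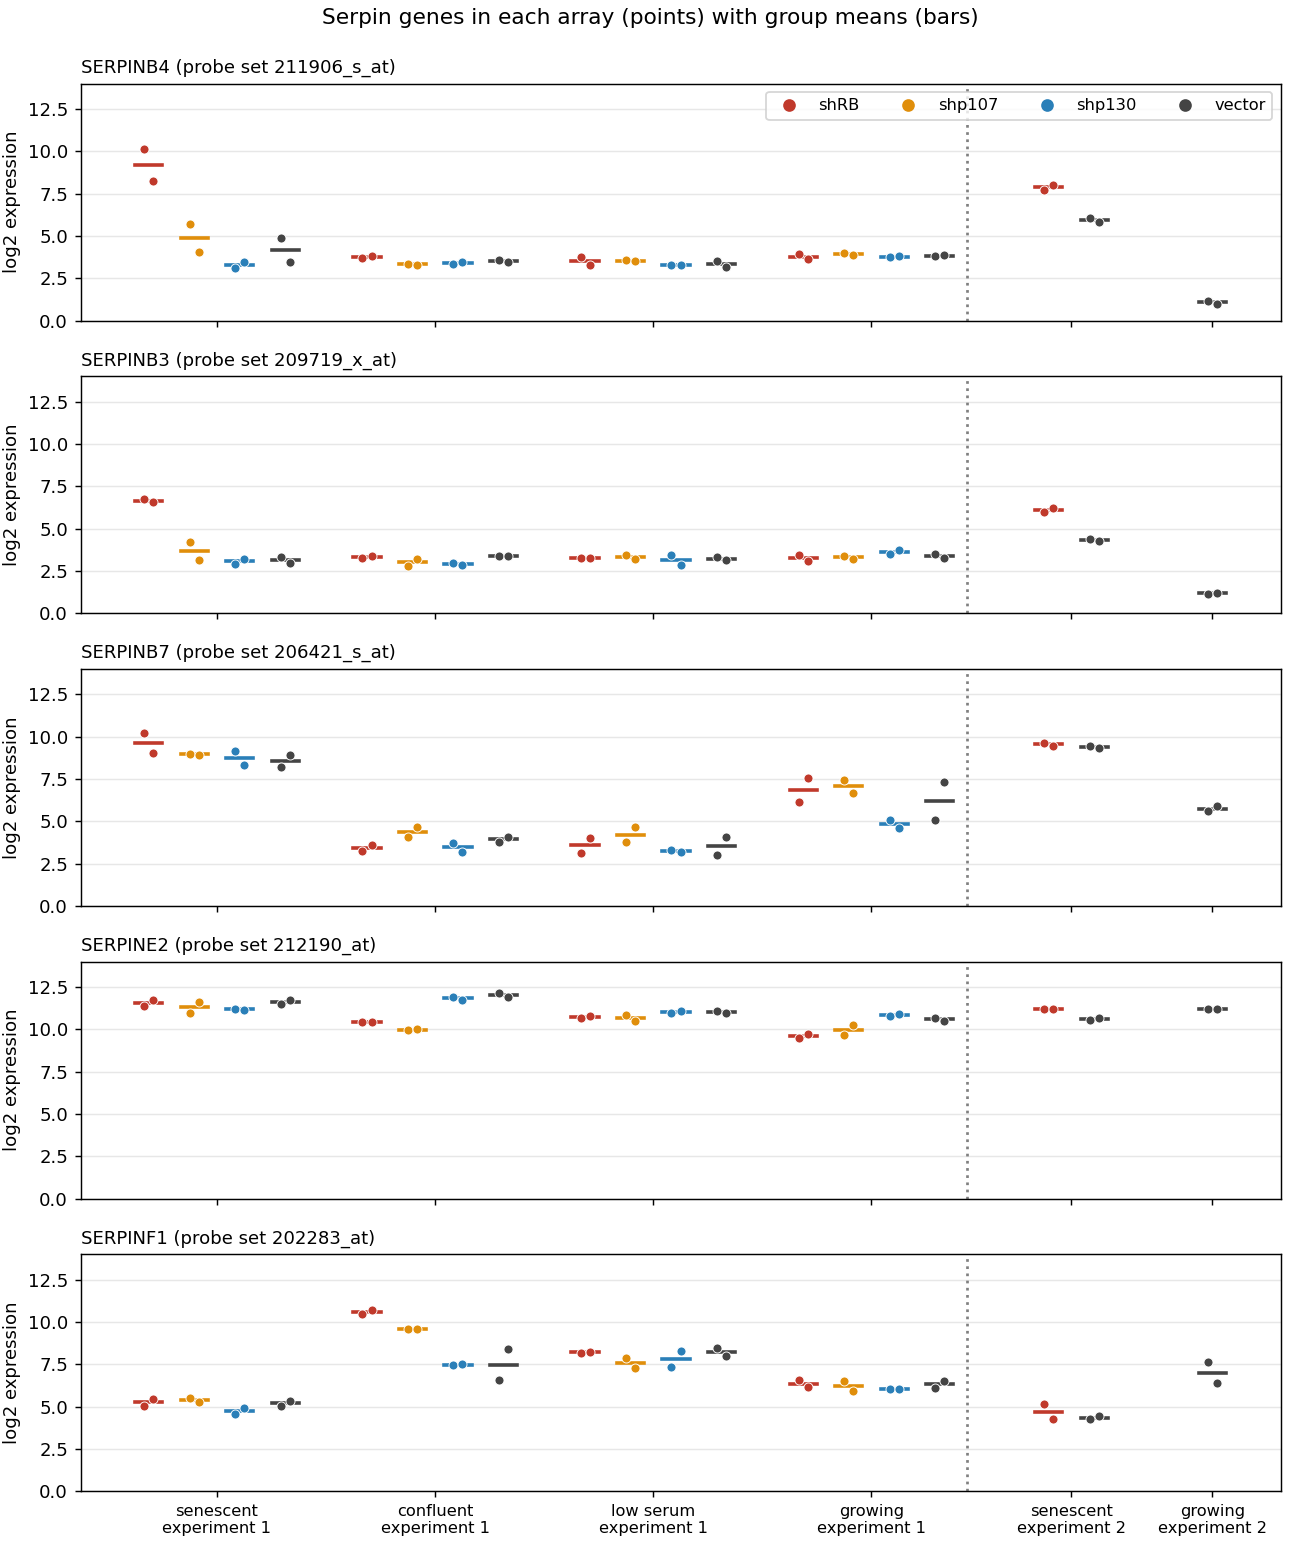
Log2 expression (vertical axis) of the 5 measured serpin genes on each array, grouped by state and experiment on the horizontal axis. Points are arrays, bars are group means and colours are hairpins. SERPINB4 and SERPINB3 stand up in senescent shRB cells, SERPINF1 in confluent shRB and shp107 cells, and SERPINB7 in all senescent groups.

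The question of SERPINB4 and SERPINB3 was what suppression of RB does in ras-senescent cells. SERPINB4 had log2 levels of 10.14 and 8.27 in senescent shRB cells of experiment 1, against 4.88 and 3.45 in senescent vector cells. The groups were far apart, although the shRB arrays also differed from each other. SERPINB4 rose by 5.04 ± 0.48 on the log2 scale (SE, n = 2 per group), 33.0-fold, with a limma adjusted p of 3.08e-07. One vector array lay within the range of non-senescent cells, at background, so the true fold may be larger. SERPINB3 had 6.76 and 6.55 in senescent shRB cells, against 3.36 and 2.95 in senescent vector cells. Its vector levels lay near the median of all probe sets, at background, so the true change from there may be larger than the fitted one. SERPINB3 rose by 3.51 ± 0.27, 11.4-fold (adjusted p = 1.58e-08). Leaving out each of the 4 arrays in turn kept both calls, with a SERPINB4 change of 4.11 to 5.98 and a SERPINB3 change of 3.3 to 3.7. Without any filter on low values the adjusted p was 1.25e-06 for SERPINB4 and 2.92e-08 for SERPINB3. In a bulk sample, fewer cells of a type and less RNA per cell cannot be told apart.

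These 2 were the members called in that comparison, of 5 tested, where 9.75% of all genes tested were called. SERPINB7 had 10.22 and 9.05 in senescent shRB cells, against 8.19 and 8.92 in senescent vector cells. Its arrays did not overlap between the groups, but the difference of 1.08 ± 0.59 was not called (adjusted p = 0.301). SERPINE2 differed by -0.06 ± 0.21 and SERPINF1 by 0.07 ± 0.40, with overlapping arrays.

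The probe sets named for either gene could share RNA from both, since SERPINB3 and SERPINB4 are near-identical copies, and the split between them is uncertain. All 4 probe sets moved. The probe set annotated to both genes had 9.70 and 8.002 in senescent shRB cells, against 3.64 and 3.10 in senescent vector cells. Fitted with all probe sets, it rose by 5.48 ± 0.36 (adjusted p = 2.9e-09). The second SERPINB3 probe set had 8.47 and 6.39 in senescent shRB cells, against 3.002 and 2.64 in senescent vector cells, and rose by 4.61 ± 0.40 (adjusted p = 1.15e-07). In experiment 2 the shared probe set rose by 1.63 ± 0.19 and the second SERPINB3 probe set by 1.46 ± 0.20 in the same comparison (adjusted p = 0.00108 and 0.00235).

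**Figure D2:**
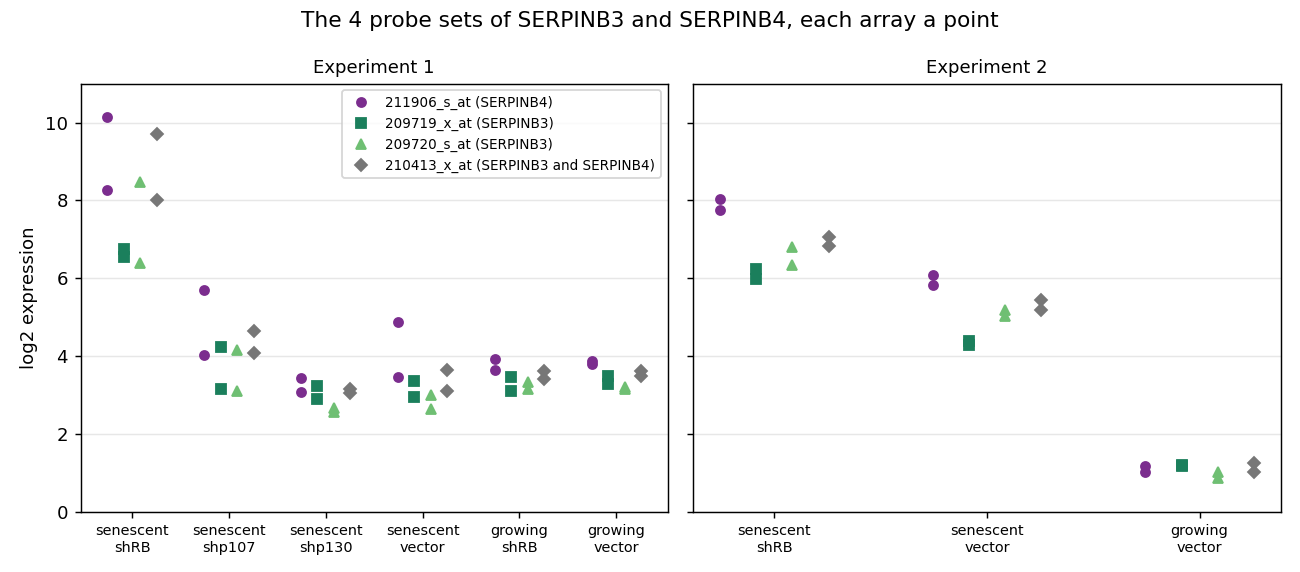
Log2 expression (vertical axis) on the 4 probe sets of SERPINB3 and SERPINB4 in senescent and growing cells, each point an array, experiment 1 left and experiment 2 right. All 4 probe sets are highest in senescent shRB cells of each experiment, and all lie near log2 1 in growing cells of experiment 2.

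Neither of the other hairpins gave this pattern at the threshold used. SERPINB4 had 5.70 and 4.03 in senescent shp107 cells and 3.08 and 3.44 in senescent shp130 cells, against the 4.88 and 3.45 of vector cells. On the probe sets that stood for them, SERPINB4 and SERPINB3 overlapped with vector in shp107 cells, with differences of 0.70 ± 0.48 and 0.54 ± 0.27, neither called. Their other probe sets did not overlap with vector in shp107 cells. The shared one had 4.63 and 4.07 in senescent shp107 cells, against 3.64 and 3.10 in senescent vector cells, and the second SERPINB3 one had 4.17 and 3.11 against 3.002 and 2.64. Their differences of 0.98 ± 0.36 and 0.82 ± 0.40 were not called either (adjusted p = 0.108 and 0.249). SERPINB3 differed by 1.09 and was called (adjusted p = 0.0272) once the second shp107 array was left out. With shp130 the SERPINB4 difference was -0.90 ± 0.48 and that of SERPINB3 -0.09 ± 0.27. By limma none of the 5 members was called with shp107 or with shp130 in senescent cells, where 7.84% and 1.67% of all genes were called. None passed an unadjusted p under 0.05 either, which 1850 and 1016 of all 8511 genes did. The hairpins were also set against each other. SERPINB4 was higher in senescent shRB cells than in senescent shp107 cells by 4.34 ± 0.48 (adjusted p = 3.17e-06) and than in senescent shp130 cells by 5.94 ± 0.48 (adjusted p = 2.52e-08). SERPINB3 was higher by 2.97 ± 0.27 (adjusted p = 2.35e-07) and 3.59 ± 0.27 (adjusted p = 9.21e-09). The other 3 members were not called in either, while 22.6% and 12.6% of all genes were. SERPINB4 and SERPINB3 had passed the filter through the senescent shRB arrays. Their calls against both hairpins held without any filter.

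The rise of SERPINB4 and SERPINB3 with shRB was not seen in the other states of experiment 1. SERPINB4 lay between 3.16 and 4.01 on all 24 arrays of growing, low-serum and confluent cells of experiment 1, whatever the hairpin. The shRB effect in senescent cells exceeded that in growing cells by 5.09 ± 0.68 for SERPINB4 (adjusted p = 0.000128) and by 3.60 ± 0.38 for SERPINB3 (adjusted p = 1.1e-05), and 1.99% of all genes differed in this way. Among shRB cells alone, senescent against growing, all 5 members were called, as were 32.8% of all genes. SERPINB4 rose by 5.42 ± 0.48 (adjusted p = 1.64e-08) and SERPINB3 by 3.37 ± 0.27 (adjusted p = 4.32e-09). Both genes had passed the filter through the senescent shRB arrays. Their calls here and in the difference of shRB effects held without any filter. SERPINB7 rose by 2.79 ± 0.59, SERPINE2 by 1.94 ± 0.21, and SERPINF1 fell by 1.10 ± 0.40 (adjusted p = 0.0374). The SERPINF1 call was lost when any of the 4 arrays was left out (adjusted p 0.0608 to 0.199), after quantile normalization (0.0961) and without the filter (0.0689).

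Some marker lists moved beside these genes. The endothelial list averaged 4.52 to 4.62 in senescent shRB cells of experiment 1, against 3.81 to 4.004 in senescent vector cells, and 4.41 to 4.68 against 3.96 to 4.02 in experiment 2, with TEK above log2 5 on all 38 arrays, CLDN5 on 10, and PECAM1, CDH5, VWF and KDR at or below 4.50 throughout. The part of that list in the SERPINB3 and SERPINB4 result was not tested. The keratinocyte list, of a cell type in which both genes are abundant, averaged 4.07 to 4.08 in senescent shRB cells and 4.17 to 4.24 in senescent vector cells.

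Experiment 2 repeated the senescent comparison. SERPINB4 had 7.74 and 8.03 in senescent shRB cells, against 6.07 and 5.81 in senescent vector cells, and SERPINB3 had 5.98 and 6.24 against 4.39 and 4.28. The arrays of the groups did not overlap for either gene. SERPINB4 rose by 1.94 ± 0.19, 3.85-fold, and SERPINB3 by 1.78 ± 0.17, 3.43-fold (both adjusted p = 0.000558). In these cells 20.1% of all genes were called. SERPINE2 had 11.21 and 11.20 in senescent shRB cells, against 10.57 and 10.68 in senescent vector cells, a change of 0.58 ± 0.16 (adjusted p = 0.0381). That SERPINE2 call was lost whichever array was left out (adjusted p 0.0929 to 0.297), when the spread was pooled over both experiments (adjusted p = 0.072) and on its second probe set (adjusted p = 0.0722). RB1 averaged 6.86 in senescent shRB cells of experiment 2 and 9.14 in senescent vector cells, against 4.06 and 9.39 in experiment 1.

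The vector cells of the experiments differed at SERPINB3 and SERPINB4. In experiment 2 SERPINB4 was 5.94 ± 0.18 in senescent vector cells and 1.09 ± 0.12 in growing vector cells (SD, n = 2), a rise of 4.85 ± 0.19 (adjusted p = 7.8e-07). In experiment 1 it was 4.16 ± 1.01 in senescent vector cells and 3.83 ± 0.05 in growing vector cells, a difference of 0.34 ± 0.48 (adjusted p = 0.664). That value was -0.38 without the first senescent array and 1.05 without the second, not called in either case. SERPINB3 rose by 3.15 ± 0.17 in experiment 2 (adjusted p = 3.12e-06) and differed by -0.24 ± 0.27 in experiment 1. Fitted over all 38 arrays, the senescence effect was larger in experiment 2 than in experiment 1 by 4.51 ± 0.64 for SERPINB4 (adjusted p = 0.000215) and by 3.39 ± 0.36 for SERPINB3 (adjusted p = 4.81e-06), where 1.50% of all genes differed. The shRB effect in senescent cells was smaller in experiment 2, with differences of -3.10 ± 0.64 for SERPINB4 (adjusted p = 0.0132) and -1.73 ± 0.36 for SERPINB3 (adjusted p = 0.0149), where 1.16% of all genes differed. Both calls on the shRB effect were lost in 5 of the 8 fits that left out an array, with adjusted p up to 0.107 and 0.0933.

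The growing levels differed between the experiments as well. In growing vector cells the SERPINB4 probe set read 1.18 and 1.01 in experiment 2, against 3.79 and 3.86 in experiment 1, and the SERPINB3 probe set 1.17 and 1.20 against 3.49 and 3.29. These SERPINB4 values stood between the percentiles 0.004 and 0.009 of their own arrays in experiment 2, against 64.0 and 65.3 in experiment 1. Of 54613 probe sets, 29 were at least 2 log2 units lower in growing vector cells of experiment 2 than of experiment 1, and the 4 probe sets of SERPINB3 and SERPINB4 were among them. The arrays as a whole had like floors, with 0.315% to 0.418% of probe sets below log2 2 in experiment 2 and 0.223% to 0.630% in experiment 1. Senescent vector cells parted the other way, with SERPINB4 higher in experiment 2. No source used here says if the experiments were normalized as 1 set, and the part of processing in the difference was not tested. The keratinocyte list averaged 4.41 to 4.45 in senescent vector cells and 4.07 to 4.08 in growing vector cells of experiment 2, and its part was not tested.

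SERPINB7 followed the growth state rather than the hairpin. It had 8.19 and 8.92 in senescent vector cells, 3.80 and 4.07 in confluent vector cells and 3.02 and 4.07 in low-serum vector cells, against 5.06 and 7.30 in growing vector cells. Growing vector cells were the group with the widest spread, and none of the other groups overlapped with it. SERPINB7 rose by 2.37 ± 0.59 in senescent cells (5.18-fold, adjusted p = 0.00478), fell by 2.25 ± 0.59 in confluent cells (adjusted p = 0.00778) and fell by 2.63 ± 0.59 in low serum (adjusted p = 0.00509). Without the second growing array the low-serum change was -1.51 (adjusted p = 0.167) and the confluent change -1.13 (adjusted p = 0.261), and without the first the senescent change was 1.25 (adjusted p = 0.169). The senescent call was also lost without the second senescent array (adjusted p = 0.064), and the low-serum call without the first low-serum array (adjusted p = 0.0979).

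Contrasts of SERPINB7 that did not use growing cells were wider than this spread. It was higher in senescent than in low-serum vector cells by 5.01 ± 0.59 (32.2-fold, adjusted p = 1.02e-06), and higher in senescent than in confluent vector cells by 4.62 ± 0.59 (24.6-fold, adjusted p = 5.81e-06). Both calls held whichever array was left out. The low-serum and confluent vector levels lay between the percentiles 35.7 and 68.6 of their arrays, around background, so the true folds may be larger. With each hairpin the order was the same: the 4 senescent groups averaged 8.56 to 9.64, the 4 growing groups 4.85 to 7.06, and the 8 low-serum and confluent groups 3.26 to 4.37. In shRB cells SERPINB7 fell by 3.26 ± 0.59 in low serum (adjusted p = 0.00122) and fell by 3.42 ± 0.59 at confluence (adjusted p = 0.000744), against growing shRB cells. In experiment 2 it had 9.46 and 9.33 in senescent vector cells, against 5.61 and 5.90 in growing vector cells, a rise of 3.64 ± 0.18 (12.5-fold, adjusted p = 2.0e-06). The senescence effect on SERPINB7 was 1.27 ± 0.78 larger in experiment 2, a difference that was not called (adjusted p = 0.534).

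**Figure D3:**
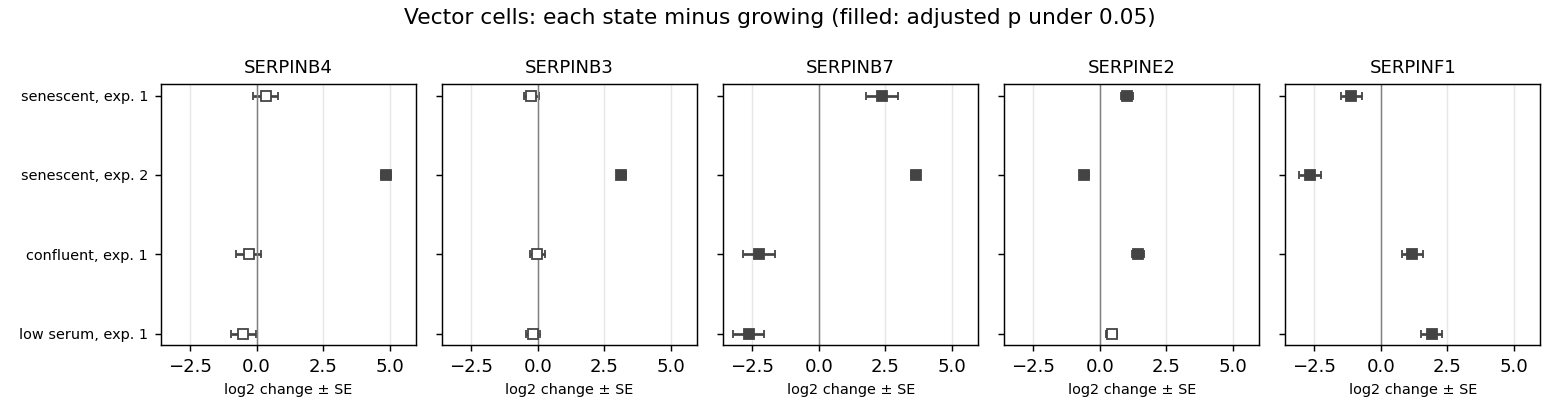
Log2 change with its standard error (horizontal axis) in vector cells of each state against growing vector cells of the same experiment, for the 5 measured genes. Filled squares passed an adjusted p under 0.05. SERPINB7 lies right of 0 in senescent cells and left of 0 in confluent and low-serum cells, SERPINF1 the other way round, and SERPINE2 changes side between the experiments.

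Across the vector states of experiment 1, 3 members were called in senescent cells (25.4% of all genes), 3 at confluence (25.1%) and 2 in low serum (13.0%), each against growing cells. Between senescent and low-serum vector cells 3 members were called (38.9%), and between senescent and confluent vector cells 2 (33.4%). In senescent vector cells of experiment 2 all 5 were called against growing vector cells (39.2%), and in senescent shRB cells 4 were (33.5%). The SERPINB4 change in that last contrast was 6.79 ± 0.19, that of SERPINB3 4.93 ± 0.17, that of SERPINB7 3.80 ± 0.18 and that of SERPINF1 -2.31 ± 0.40. SERPINB4 and SERPINB3 started there from the very low growing vector levels of experiment 2, 1.09 and 1.19 on average. Growing vector cells of experiment 1 averaged 3.83 and 3.39. The part of these low readings in the size of both changes was not tested. In shRB cells of experiment 1, 3 members were called in low serum (6.43%) and 3 at confluence (11.1%), against growing shRB cells.

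SERPINE2, the secreted inhibitor of thrombin and plasminogen activators, was bright in every group of experiment 1, with means from 9.62 to 12.03. It had 11.51 and 11.71 in senescent vector cells, 12.14 and 11.92 in confluent vector cells and 11.09 and 10.97 in low-serum vector cells, against 10.66 and 10.52 in growing vector cells. None of these groups overlapped with growing cells. SERPINE2 rose by 1.44 ± 0.21 at confluence (2.71-fold, adjusted p = 5.22e-05) and by 1.02 ± 0.21 in senescence (2.03-fold, adjusted p = 0.00122), while the low-serum difference of 0.44 ± 0.21 was not called (adjusted p = 0.182). Senescent cells exceeded low-serum cells by 0.58 ± 0.21 (adjusted p = 0.0373), a call lost whichever array was left out. Senescent cells differed from confluent cells by -0.42 ± 0.21 (adjusted p = 0.142), a difference called on the mean over both probe sets of the gene (-0.87, adjusted p = 0.00132). A second, dim SERPINE2 probe set rose by 1.46 ± 0.30 at confluence (adjusted p = 0.00115) but differed by 0.15 ± 0.30 in senescence (adjusted p = 0.775).

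The senescence effect on SERPINE2 ran the other way in experiment 2. Senescent vector cells had 10.57 and 10.68, against 11.22 and 11.20 in growing vector cells, a change of -0.59 ± 0.16 (adjusted p = 0.0194) whose call was lost without either senescent array (adjusted p 0.191 and 0.119). The effect in experiment 2 minus that in experiment 1 was -1.61 ± 0.28 (adjusted p = 0.00246). It was called in every fit that left out 1 array, but not on the second probe set (-1.21, adjusted p = 0.161). Growing cells stood higher in experiment 2 than in experiment 1 and senescent cells lower.

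At confluence SERPINE2 and SERPINF1 parted with the same hairpins. SERPINE2 had 10.46 and 10.43 in confluent shRB cells, 9.95 and 10.01 in confluent shp107 cells and 11.94 and 11.75 in confluent shp130 cells, against 12.14 and 11.92 in confluent vector cells. The shRB and shp107 arrays all lay below the vector arrays, and the shp130 arrays overlapped with them. SERPINE2 fell by 1.58 ± 0.21 with shRB (0.334-fold, adjusted p = 2.31e-05) and fell by 2.05 ± 0.21 with shp107 (0.241-fold, adjusted p = 8.02e-07). The dim probe set of SERPINE2 fell by 1.66 ± 0.30 with shRB (adjusted p = 0.000509) and fell by 1.97 ± 0.30 with shp107 (adjusted p = 7.99e-05).

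SERPINF1 had 10.47 and 10.71 in confluent shRB cells, 9.60 and 9.61 in confluent shp107 cells and 7.45 and 7.54 in confluent shp130 cells, against 6.59 and 8.39 in confluent vector cells. The vector arrays were the least alike, here as over all probe sets, and both shRB and shp107 arrays lay above the higher of them. SERPINF1 rose by 3.10 ± 0.40 with shRB (8.59-fold, adjusted p = 1.13e-05) and by 2.12 ± 0.40 with shp107 (4.34-fold, adjusted p = 0.000739). Leaving out an array gave 2.20 to 4.01 with shRB and 1.21 to 3.02 with shp107, and all these fits kept the call. The extremes came from leaving out a confluent vector array.

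These were the members called at confluence with shRB (2 of 5, where 17.5% of all genes were called) and with shp107 (2 of 5, 13.5%). With shp130 none was called by limma, where 0.0235% of all genes were called. None passed an unadjusted p under 0.05 either, which 456 of all 8511 genes did. The shp130 differences were -0.18 ± 0.21 for SERPINE2 and 0.01 ± 0.40 for SERPINF1. The shRB effect on SERPINF1 at confluence exceeded that in growing cells by 3.05 ± 0.56 (adjusted p = 0.0033), and 2.55% of all genes differed in this way. For SERPINE2 the same difference was -0.61 ± 0.30 and not called (adjusted p = 0.336).

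**Figure D4:**
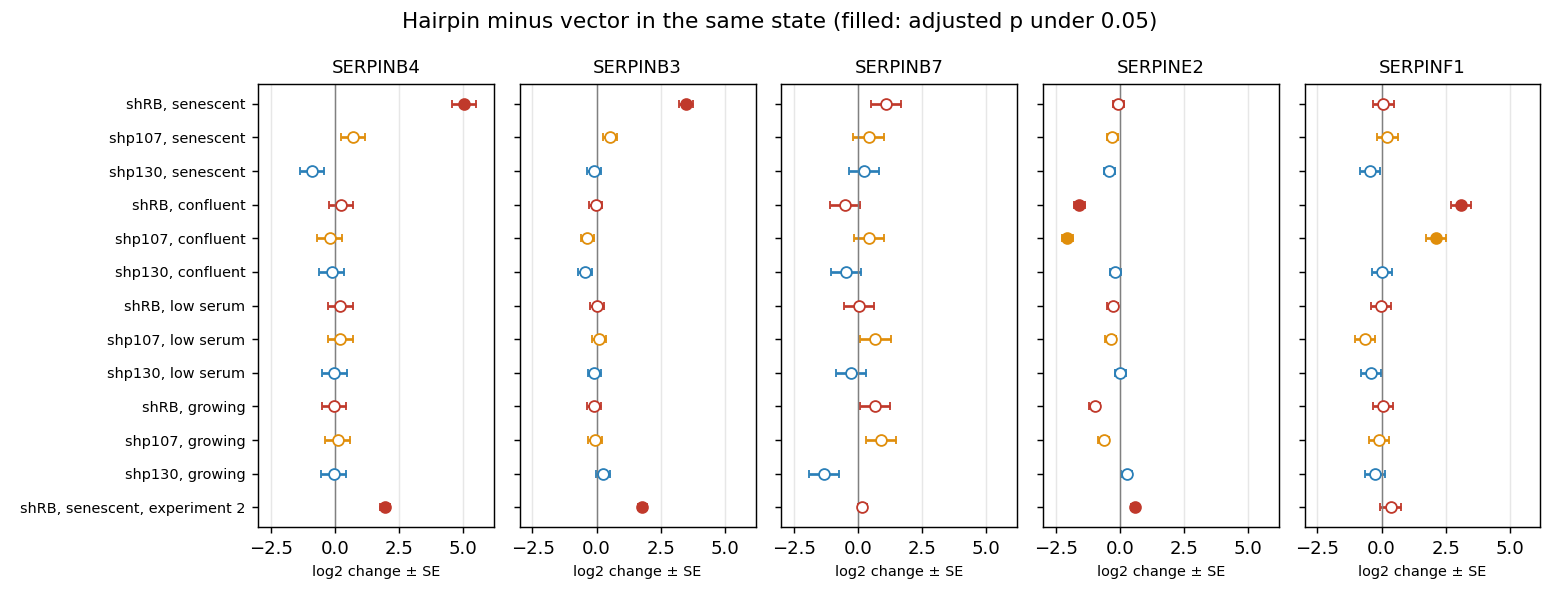
Log2 change with its standard error (horizontal axis) of each hairpin against vector in the same state, for the 5 measured genes, with the senescent comparison of experiment 2 in the lowest row. Filled points passed an adjusted p under 0.05. SERPINB4 and SERPINB3 are filled with shRB in senescent cells of both experiments, SERPINE2 and SERPINF1 with shRB and shp107 at confluence, and SERPINE2 with shRB in senescent cells of experiment 2.

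SERPINF1 tracked the states in the opposite sense to SERPINB7. It had 5.07 and 5.33 in senescent vector cells, 6.59 and 8.39 in confluent vector cells and 8.47 and 7.9985 in low-serum vector cells, against 6.13 and 6.51 in growing vector cells. All groups were separate from growing cells. In low serum it rose by 1.92 ± 0.40 (3.78-fold, adjusted p = 0.00283), a call that held whichever array was left out. The confluent rise of 1.17 ± 0.40 (adjusted p = 0.0348) was 0.27 without the second confluent array (adjusted p = 0.638), and was also lost without either growing array (adjusted p 0.176 and 0.0835) or without the filter (0.0658). The senescent change of -1.12 ± 0.40 (adjusted p = 0.0428) was lost whichever array was left out (adjusted p 0.0749 to 0.238) after quantile normalization (0.105) and without the filter (0.0837).

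Against the quiescent states the SERPINF1 difference was larger. The change was -3.04 ± 0.40 in senescent against low-serum vector cells (adjusted p = 4.1e-06), and -2.29 ± 0.40 in senescent against confluent vector cells (adjusted p = 0.000168). The confluent vector arrays set the size of the second, which was -3.19 without the first and -1.39 without the second of them, and called in both. The mean level of the 9 fibroblast markers moved with SERPINF1 in some groups but not in all. It was 9.86 to 9.93 in senescent, 10.74 to 11.33 in confluent and 11.41 to 11.63 in low-serum vector cells, against 10.82 to 10.94 in growing vector cells. It was 11.67 to 11.69 in confluent shRB and 11.53 to 11.58 in confluent shp107 cells, and in experiment 2 it was 9.61 to 9.77 in senescent and 11.45 to 11.51 in growing vector cells. The part of that list in the SERPINF1 results was not tested. In experiment 2 SERPINF1 had 4.28 and 4.44 in senescent vector cells, against 7.62 and 6.43 in growing vector cells, a change of -2.66 ± 0.40 (adjusted p = 0.00106). Among shRB cells it rose by 4.22 ± 0.40 at confluence (18.6-fold, adjusted p = 1.51e-06) and by 1.84 ± 0.40 in low serum (adjusted p = 0.00622), against growing shRB cells. The low-serum call in shRB cells was lost without the second growing shRB array (adjusted p = 0.0726). SERPINE2 in shRB cells rose by 1.13 ± 0.21 in low serum (adjusted p = 0.00199) and by 0.83 ± 0.21 at confluence (adjusted p = 0.0157). The confluent call was lost in 3 of the 4 fits that left out an array, and neither call held on the second probe set of SERPINE2 (adjusted p = 0.683 and 0.301).

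In growing and low-serum cells no member was called with any hairpin, and few genes were. In growing cells the shares of all genes called were 0.188% with shRB, 0% with shp107 and 0.0587% with shp130, and in low serum 0.0822%, 0.0352% and 0.270%. An unadjusted p under 0.05 was reached by 1 member with each hairpin in growing cells and by 0 in low serum. Of all 8511 genes, 537, 117 and 379 reached it in growing cells with shRB, shp107 and shp130. In low serum 704, 354 and 471 did. SERPINE2 had 9.49 and 9.74 in growing shRB cells, against 10.66 and 10.52 in growing vector cells. That difference of -0.97 ± 0.21 had an adjusted p of 0.0594, and 0.0322 with a variance trend. SERPINE2 differed by -0.62 ± 0.21 with shp107 (adjusted p = 1) and SERPINB7 by -1.33 ± 0.59 with shp130 (adjusted p = 0.998). The shRB effect in low serum differed from that in growing cells for 0% of all genes, and for none of the members by limma. There 1 member, SERPINE2, had an unadjusted p under 0.05, as did 307 of all 8511 genes.

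The order of the 16 groups of experiment 1 was read for each gene, with neighbours whose arrays overlapped taken as not separated. SERPINB4 and SERPINB3 were highest in senescent shRB cells, separated from senescent shp107 cells in second place, and most of the neighbours further down overlapped. SERPINB7 ran from senescent shRB (9.64) to low-serum shp130 (3.26), with a break after senescent vector cells. Senescent shRB cells did not overlap with senescent shp107 cells, next in order. They did overlap with senescent shp130 cells (lower shRB array 9.05, higher shp130 array 9.18), so the senescent groups were not separated. SERPINE2 ran from confluent vector (12.03), which overlapped with confluent shp130 (11.85), to growing shRB (9.62). SERPINF1 ran from confluent shRB (10.59) and confluent shp107 (9.61), separated from each other and from low-serum vector (8.24), to senescent shp130 (4.76).

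Genes most like each member over these 16 group means were named by Pearson correlation, as a description only, since the groups share vector, states and arrays. SERPINB4 was most like PDZK1 (0.984), SERPINB3 (0.978) and ST6GAL1 (0.942). SERPINB3 was most like SERPINB4, PDZK1 (0.970) and CLDN5 (0.929). For SERPINB4 and SERPINB3 the senescent shRB means (9.21 and 6.66) stood far above the next, senescent shp107 (4.86 and 3.69). The correlations of SERPINB4 and SERPINB3 therefore largely reflect senescent shRB cells. SERPINB7 was most like TOMM34 (0.969), SMAP2 (0.960) and PSMD14 (0.957). For SERPINE2 they were AHR (0.925), GDPD1 (0.915) and DCP1A (0.903), and for SERPINF1 GBP2 (0.972), TMT1A (0.961) and PDGFRL (0.959).

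Other serpins were few in these cells. Of 29 listed, 25 were measured and 8 passed the filter. In senescent against growing vector cells of experiment 1, 3 rose and 3 fell, with a list median of 0.11 against -0.10 over all genes tested. Of all genes tested, 25.4% were called there. SERPINB8, a clade B inhibitor of furin, rose by 2.51 ± 0.34 (adjusted p = 9.55e-06), while SERPINH1, the collagen chaperone HSP47, fell by 1.61 ± 0.32 and SERPINB9, the granzyme B inhibitor, fell by 1.501 ± 0.33. In experiment 2, where 39.2% of all genes were called, 4 rose and 2 fell, with a median of 0.87 against 0.01, SERPINB8 by 2.59 ± 0.19. With shRB in senescent cells of experiment 1, SERPINA1 (alpha-1-antitrypsin) rose by 2.03 ± 0.30 (adjusted p = 0.000103) and SERPINA9 by 2.35 ± 0.48 (adjusted p = 0.0027). None of the 8 fell (median -0.33 against -0.02), and 9.75% of all genes were called. In experiment 2 SERPINA9 rose by 1.33 ± 0.20, SERPINB9 by 0.94 ± 0.22 and SERPINB8 fell by 0.73 ± 0.19 (median -0.13 against -0.05, 20.1% of all genes called). At confluence with shRB 2 rose and 1 fell (median -0.00085 against -0.07, 17.5% of all genes called). SERPING1, the C1 inhibitor, rose by 1.65 ± 0.29, SERPINH1 rose by 1.41 ± 0.32 and SERPINB1 fell by 1.29 ± 0.23.

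The proteases these serpins can meet were counted from lists. Of 10 cathepsins and mast cell proteases, 6 were tested, and in senescent against growing vector cells 4 rose and none fell in either experiment, with medians of 1.06 in experiment 1 and 0.77 in experiment 2 (all genes -0.10 and 0.01). Of all 8511 genes tested, 784 rose and 1382 fell in experiment 1, 25.4% in all, and 1588 rose and 1751 fell in experiment 2, 39.2% in all. CTSS, the cysteine protease cathepsin S, rose by 2.53 ± 0.42 (adjusted p = 0.000119) in experiment 1 and by 5.597 ± 0.17 (adjusted p = 2.76e-07) in experiment 2. With shRB in senescent cells CTSS alone of the 6 was called, with a rise of 2.51 ± 0.42 (adjusted p = 0.000415) in experiment 1 and of 0.70 ± 0.17 (adjusted p = 0.0235) in experiment 2. It averaged 8.73 in senescent shRB cells and 6.22 in senescent vector cells of experiment 1. Of all genes, 9.75% and 20.1% were called with shRB in senescent cells of experiments 1 and 2.

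Among 9 genes of thrombin and its receptors 6 were tested. THBD (thrombomodulin) rose by 4.01 ± 0.22 (adjusted p = 1.67e-11) in senescent vector cells of experiment 1 and by 2.67 ± 0.22 in senescent shRB against senescent vector cells (adjusted p = 2.66e-08), while the thrombin receptor gene F2RL2 fell by 2.11 ± 0.29 in senescent vector cells. The list had 1 rise and 1 fall in senescence (median 0.11, all genes -0.10, of which 25.4% were called). In senescent vector cells of experiment 2 it had 3 rises and 1 fall (median 0.22, all genes 0.01, of which 39.2% were called), with THBD higher by 6.37 ± 0.16. With shRB in senescent cells of experiment 2 none of the 6 was called by limma, where 20.1% of all genes were. An unadjusted p under 0.05 was reached by 0 of them and by 3099 of all 8511 genes. THBD averaged 8.66 in those shRB cells and 8.89 in senescent vector cells, and its shRB effect differed between the experiments by -2.90 ± 0.28 (adjusted p = 2.61e-06). At confluence, where SERPINE2 fell with shRB and shp107, the inhibitor genes TFPI2 and TFPI fell too, where TFPI2 fell by 2.53 ± 0.30 with shRB (adjusted p = 5.12e-06) and fell by 2.89 ± 0.30 with shp107 (adjusted p = 8.58e-07). In those comparisons 0 of 6 rose and 2 fell with shRB, and 1 rose and 3 fell with shp107 (medians -0.28 and -0.26, all genes -0.07 and 0.01). Of all genes, 17.5% and 13.5% were called there.

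Of 10 plasminogen activation genes 7 were tested. In low serum 3 fell and none rose (median -0.20, all genes 0.03, of which 13.0% were called). PLAUR, the urokinase receptor, fell by 2.21 ± 0.55, PLAT, tissue plasminogen activator, fell by 2.09 ± 0.37, and PLAU, urokinase, fell by 1.44 ± 0.21. In senescent vector cells of experiment 1 none of the 7 was called by limma (median 0.06, all genes -0.10, of which 25.4% were called). An unadjusted p under 0.05 was reached by 0 of them and by 3030 of all 8511 genes. In experiment 2, 3 rose and 2 fell (median 0.13, all genes 0.01, of which 39.2% were called), with PLAT higher by 1.25 ± 0.17 and PLAU by 0.88 ± 0.17. At confluence 2 rose and 1 fell with shRB (median -0.12, all genes -0.07, of which 17.5% were called), and 2 rose and 2 fell with shp107 (median -0.18, all genes 0.01, of which 13.5% were called). Of 7 partners of PEDF 4 were tested. At confluence with shRB, where SERPINF1 rose, none of these rose. PLXDC2, a PEDF receptor, fell there by 1.36 ± 0.40 (adjusted p = 0.0227, list median -0.32, all genes -0.07). With shp107 none was called by limma (median -0.10, all genes 0.01). An unadjusted p under 0.05 with shp107 was reached by 1 of them and by 2171 of all 8511 genes.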

How the data were processed

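Total RNA of 38 arrays in 19 groups of 2 was measured. Per the labels, biotinylated cRNA was made by the standard Affymetrix protocol. The authors deposited a log2 value for each probe set and array. GCRMA is the tool that the submitters' processing notes name, and its settings are not stated there. Values entered the fits unchanged, and 0 columns belonged to other samples.

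Probe sets were named from the platform annotation with symbols updated by gene identifier: 41091 named 1 gene, 1801 named several, and 11721 had no match. Among probe sets that named a gene alone, the one of highest mean (38 arrays) stood for it. Genes above log2 5 on at least 2 arrays of experiment 1 were tested. The 2 experiments had separate limma fits (version 3.58.1, R 4.3.3) of group means with eBayes (16 and 3 residual degrees of freedom). A fit of all 38 arrays (19 residual degrees of freedom) gave differences between experiments. P-values were adjusted by the Benjamini-Hochberg method within a contrast over 8511 genes, and called at adjusted p under 0.05. The fit was tested on simulated data. Figures were drawn with matplotlib 3.10.9.

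The members and the gene lists were chosen with earlier results of these data known. All members were named. The 3 genes of highest Pearson correlation with a member over the 16 group means were named, and from each list up to 4 called genes per comparison by size of change. Alternatives covered normalization, filters, choice of probe set, variance trend, replicate block, experiment as a block, pooled spread and leaving out arrays.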

Additional observations from a re-analysis of the deposited data

Results flagged for a closer look

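Differences of effects that passed their own test were looked at again. SERPINB4 and SERPINB3 had passed the filter through the senescent shRB arrays, which enter the shRB effects in senescent cells. The shRB effect in senescent cells minus that in growing cells was 5.09 for SERPINB4 and 3.60 for SERPINB3 (log2), and the shRB effect at confluence minus that in growing cells was 3.05 for SERPINF1. All were called in each of the 8 fits that left out an array, with adjusted p of at most 0.00176, 0.000181 and 0.0293.

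The senescence effect in vector cells, experiment 2 minus experiment 1, was 4.51 for SERPINB4, 3.39 for SERPINB3 and -1.61 for SERPINE2. The shRB effect in senescent cells, experiment 2 minus experiment 1, was -3.10 for SERPINB4 and -1.73 for SERPINB3. These differences stand beside a SERPINB4 level in growing vector cells of 1.09 in experiment 2 and 3.83 in experiment 1, and beside an RB1 level in senescent shRB cells of 6.86 in experiment 2 and 4.06 in experiment 1. The part of either in the differences was not tested.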

How the results depend on the processing

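With experiments combined and experiment as a block, the SERPINB3 change in senescent vector cells was 1.46, of opposite sign to experiment 1, and the SERPINE2 change was 0.22, of opposite sign to experiment 2. A single common effect is fitted there. With a stricter filter, above log2 7, SERPINB3 was not tested, and 1 member was called with shRB in senescent cells of experiment 1, in its difference from growing cells, against shp107, against shp130 and in the difference of the shRB effect between experiments, where 2 had been. Leaving out probe sets with the suffixes _x_at and _s_at removed SERPINB3, SERPINB4 and SERPINB7, so only SERPINE2 and SERPINF1 were tested. Of these 2, the members called were 0 with shRB in senescent cells of experiment 1, against either other hairpin, in its difference from growing cells and in its difference between experiments. SERPINB3 and SERPINB4, the members called in those comparisons before, were not tested there. The count was 1 in low serum, in senescent against confluent cells, with shRB in senescent cells of experiment 2, in senescent shRB against growing vector cells and in the senescence effect between experiments. It was 2 in senescent against growing shRB cells and in senescent vector cells of experiment 2. With a variance trend 1 member was called with shRB in growing cells. Leaving out arrays in turn gave 1 to 3 members called at confluence, 1 to 2 in low serum and in senescent vector cells of experiment 1, 0 to 1 with shp107 in senescent cells and 0 to 2 for the shRB effect between experiments. The replicate block changed no member's call: the adjusted p of SERPINB4 with shRB in senescent cells was 1.16e-07. Replicate numbers were not taken to pair the samples. Deviations correlated at -0.376 to 0.490 over 120 pairs of groups, with a median of 0.041 and 38 above 0.1. A low median cannot exclude pairing among some groups. Over all genes, the count called with shRB in senescent cells of experiment 1 was 830, and 376 to 1394 under the alternatives. It was 1710 (289 to 2637) in experiment 2, 1486 (751 to 1874) with shRB and 1148 (641 to 1513) with shp107 at confluence, 2 (1 to 223) with shp130 at confluence, 667 (183 to 1477) with shp107 and 142 (46 to 197) with shp130 in senescent cells. Against growing vector cells it was 1110 (439 to 1309) in low serum, 2134 (909 to 2315) at confluence and 2166 (1337 to 3597) in senescence. These ranges over all genes leave out the alternatives that changed the filter or the choice of probe set. The 2 arrays a group and levels near log2 3.3, where most probe sets lie, limit what can be read from low serpin values.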
